A study of Homo sapiens with 3 samples.

Results

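Glycolysis and the transcriptional response to low oxygen were followed through 33 genes of 32727 in a deposited table of average expression per cell cluster. The genes were chosen by function, with no value of the table in the rule but with earlier results of these data known. They were 17 glycolytic enzymes including both lactate dehydrogenase subunits, 4 transporters of glucose and lactate, and 12 hypoxia-induced genes. The libraries are labelled as the lines NCCIT, 2102EP and GCT27, which derive from embryonal carcinoma (EC), a germ cell tumor of pluripotent cells, and were driven toward yolk-sac tumor (YST) like cells. Each line gave 1 single cell RNA sequencing library, made in droplets. All lines carried the lenti-MPHv2 helper of the CRISPR activation system and had received SOX17-lenti-SAMv2 virus, which induces the endogenous SOX17 gene. From the next day the medium held 100 ng/ml Activin-A and 25 ng/ml FGF2, both recombinant, together with 3 µM CHIRON, a WNT pathway agonist, and 1 µg/ml heparin, renewed every 48 h until day 8. The base medium differed between the lines, with RPMI 1640 for NCCIT, DMEM-GlutaMaX with pyruvate for 2102EP and DMEM-GlutaMaX for GCT27, and the labels name neither a glucose concentration nor an oxygen condition. No library of untreated cells was among the samples, so a response to the treatment cannot be told apart from other differences between clusters.

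Glycolysis splits glucose into pyruvate in the cytoplasm, and lactate dehydrogenase reduces pyruvate to lactate, which monocarboxylate transporters carry out of the cell. Pluripotent cells and EC cells are known for a high glycolytic rate. When oxygen is scarce, the prolyl hydroxylases that mark the alpha subunits of the hypoxia-inducible factors (HIF) for VHL-dependent degradation lose activity, and the stabilised factors bind short hypoxia response elements near genes of glycolysis, angiogenesis and mitophagy. Many glycolytic genes are therefore also known HIF targets, and the enzymes are set against the hypoxia-induced genes here.

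The table held 14 clusters, numbered 0 to 13, of 20844 cells. A level is given as the cluster average in UMIs (unique molecular identifiers, counts of captured transcripts) per 10000, computed over the cells of all libraries together. The level therefore has no replicate error, belongs to no single cell line, and no difference between clusters was tested. A log2 difference compares a cluster with the unweighted mean of the other 13 after adding 0.1 to both. Clusters 9, 11 and 12 took 83.2%, 86.3% and 99.4% of their cells from 1 library, and cluster 13 held 42 cells, with ribosomal and mitochondrial shares of 29.8% and 6.10% of the UMIs. The median log2 difference over all 12139 genes with a mean level of at least 0.05 was lowest in cluster 13 (-0.51), followed by clusters 11 (-0.29) and 5 (-0.24), and lay from -0.05 to 0.09 in the others. Of the members, 32 reached this mean, and CA9 did not. SOX17 was highest in cluster 0 (21.0) and the pluripotency factor POU5F1 in cluster 6 (3.96). The summed level of the EC markers went from 1.36 (cluster 13) to 13.01 (cluster 6), and that of the endoderm markers from 0.295 (cluster 12) to 21.2 (cluster 0), most of it SOX17.

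Promoter sequences are shown for genes whose levels carry the comparison. LDHA had the widest range over clusters of all members once 0.1 was added to each level, LDHB is its counterpart subunit gene, BNIP3 and ADM are hypoxia-induced genes that were highest in different clusters, and CA9 is the hypoxia-induced gene that was hardly detected. Each is the 250 bases before the transcription start in the RefSeq promoter table of GRCh38.p14, on the strand of the gene, with ACGTG or GCGTG on either strand in capitals. These are core words of the hypoxia response element. LDHA lies at chr11:18394313-18394562 (plus strand), LDHB at chr12:21657843-21658092 (minus), BNIP3 at chr10:131981924-131982173 (minus), ADM at chr11:10304823-10305072 (plus) and CA9 at chr9:35673678-35673927 (plus).
LDHA: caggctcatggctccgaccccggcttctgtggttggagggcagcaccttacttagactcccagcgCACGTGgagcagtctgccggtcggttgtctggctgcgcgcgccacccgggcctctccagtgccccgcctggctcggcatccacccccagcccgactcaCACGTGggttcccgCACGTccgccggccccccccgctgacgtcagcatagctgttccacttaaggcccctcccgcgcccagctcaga
LDHB: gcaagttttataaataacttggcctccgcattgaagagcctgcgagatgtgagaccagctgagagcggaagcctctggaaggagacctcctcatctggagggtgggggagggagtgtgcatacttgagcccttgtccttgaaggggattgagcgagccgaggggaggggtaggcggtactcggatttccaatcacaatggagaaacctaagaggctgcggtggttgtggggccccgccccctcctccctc
BNIP3: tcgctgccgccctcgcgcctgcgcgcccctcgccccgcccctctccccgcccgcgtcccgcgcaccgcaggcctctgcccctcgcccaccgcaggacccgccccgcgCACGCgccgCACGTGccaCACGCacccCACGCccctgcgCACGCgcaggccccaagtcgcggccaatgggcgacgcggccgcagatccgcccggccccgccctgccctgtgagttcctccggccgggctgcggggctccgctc
ADM: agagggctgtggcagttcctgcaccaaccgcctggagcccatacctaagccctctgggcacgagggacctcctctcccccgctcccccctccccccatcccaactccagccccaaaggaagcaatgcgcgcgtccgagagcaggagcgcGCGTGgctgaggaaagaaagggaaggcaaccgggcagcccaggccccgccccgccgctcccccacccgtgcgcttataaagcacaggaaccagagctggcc
CA9: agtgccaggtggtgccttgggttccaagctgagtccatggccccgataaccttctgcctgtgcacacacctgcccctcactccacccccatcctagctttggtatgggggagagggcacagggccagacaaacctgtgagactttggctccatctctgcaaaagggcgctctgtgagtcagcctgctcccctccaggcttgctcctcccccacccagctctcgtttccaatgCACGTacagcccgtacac

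The LDHA window held 3 capital stretches, and that of LDHB held 0. BNIP3, ADM and CA9 held 5, 1 and 1 stretches. A promoter was matched for 29 of the 33 members, all except VEGFA, SLC2A3, SLC16A1 and NDRG1. A word was found in 11 of 17 enzyme promoters, including HK2, PGK1, ENO1 and LDHA, in 9 of 10 hypoxia-induced gene promoters, and in that of SLC16A3 but not SLC2A1. The same search found a word in 43.7% of all 27303 promoters and in 59.7% of the 9313 promoters of genes with a mean level of at least 0.05. The share among the enzymes, 64.7%, was thus close to that of other expressed genes. ACGTG, with or without GCGTG, was present in 8 of 17 enzyme and 6 of 10 hypoxia-induced gene promoters, against 24.1% of those of expressed genes. GCGTG went the other way, with 6 of 17 and 4 of 10 against 47.7%. The palindrome CACGTG was counted on both strands. The matched promoter starts of PFKM, PGAM1, GAPDH, PFKP, HK1 and GPI lay 3283, 1627, 747, 422, 217 and 204 bases from the GENCODE 44 canonical start. Of these, GAPDH, HK1 and GPI held a word and PFKM, PGAM1 and PFKP did not. A match is a feature of the letters and no measurement of binding.

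The lists had their highest and lowest medians in different clusters. The median log2 difference of the 17 enzymes was highest in clusters 5 (0.43), 6 (0.21) and 10 (0.18) and lowest in clusters 9 (-0.56) and 13 (-0.48), followed by cluster 0 (-0.37). Their summed level went from 74.5 in cluster 9 to 163 in cluster 5. The hypoxia-induced genes had medians from -0.08 to 0.15 outside cluster 13, where the median was -0.61. In 9 clusters the sign of this median depended on the setting. The single genes spanned more than these medians did. With cluster 13 included, the median log2 range over clusters was 1.49 for the hypoxia-induced genes and 1.20 for the enzymes. It was 1.22 for all genes with a mean level of at least 0.05, and 1.51 for the 3808 genes with a mean of at least 0.5. Cluster 13 held the lowest level of 7 of 11 hypoxia-induced genes. Over the clusters of at least 200 cells, the log2 ranges of these 11 went from 0.30 (ANKRD37) to 2.10 (ADM). The transporters were highest in clusters 10 (0.76), 12 (0.63) and 1 (0.27) and lowest in clusters 13 (-0.98) and 5 (-0.66). Cluster 5 thus had the highest enzyme median and a transporter median below all but 1 cluster. In cluster 5, 72.7% of the cells came from 1 library and the ribosomal share was 23.4%, and the part of either in these values was not tested.

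**Figure D1:**
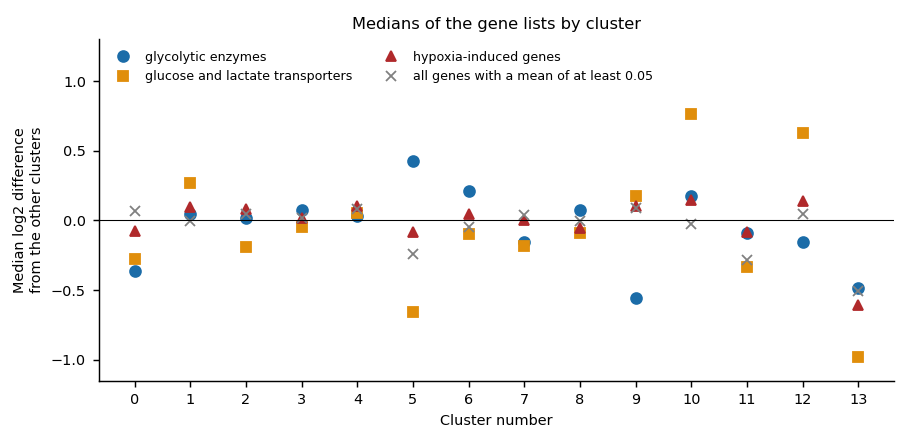
Median log2 difference (y axis) of the glycolytic enzymes, the transporters, the hypoxia-induced genes and all genes with a mean level of at least 0.05 (symbols) in each of the 14 clusters (x axis), each cluster against the mean of the others. The enzymes stand above the other lists in cluster 5 (0.43) and below them in cluster 9 (-0.56), whereas the hypoxia-induced genes lie within -0.08 to 0.15 outside cluster 13.

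Of 448 pairs of a member and a cluster, 3 were at least 2-fold higher than the other clusters, namely ADM in cluster 0, SLC2A1 in cluster 10 and SLC2A3 in cluster 12. This is 0.67% of the pairs, against 1.27% over all genes. At least 2-fold lower were 16 pairs or 3.57%, against 3.4% over all genes. Both shares were near those of all genes or below them. Of the lower pairs, 8 were in cluster 13, where 23.9% of all genes were at least 2-fold lower, and 4 were in cluster 9, where 3.12% were. The enzymes had 6 lower pairs and 0 higher ones. At least a 4-fold range over the clusters was found for 5 of 32 members, LDHA, SLC2A3, ADM, PFKP and PFKFB3, against 15.2% of all genes. Without the 2 clusters of under 200 cells, 3 of them remained, LDHA, ADM and PFKP. All 19 pairs kept their sign when the columns were rescaled by the median of ratios or without ribosomal protein and mitochondrial genes, and 13 and 15 of them stayed past 2-fold. With the median of ratios, ADM in cluster 0 came to 0.87 and SLC16A1 in cluster 11 to -0.59.

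**Figure D2:**
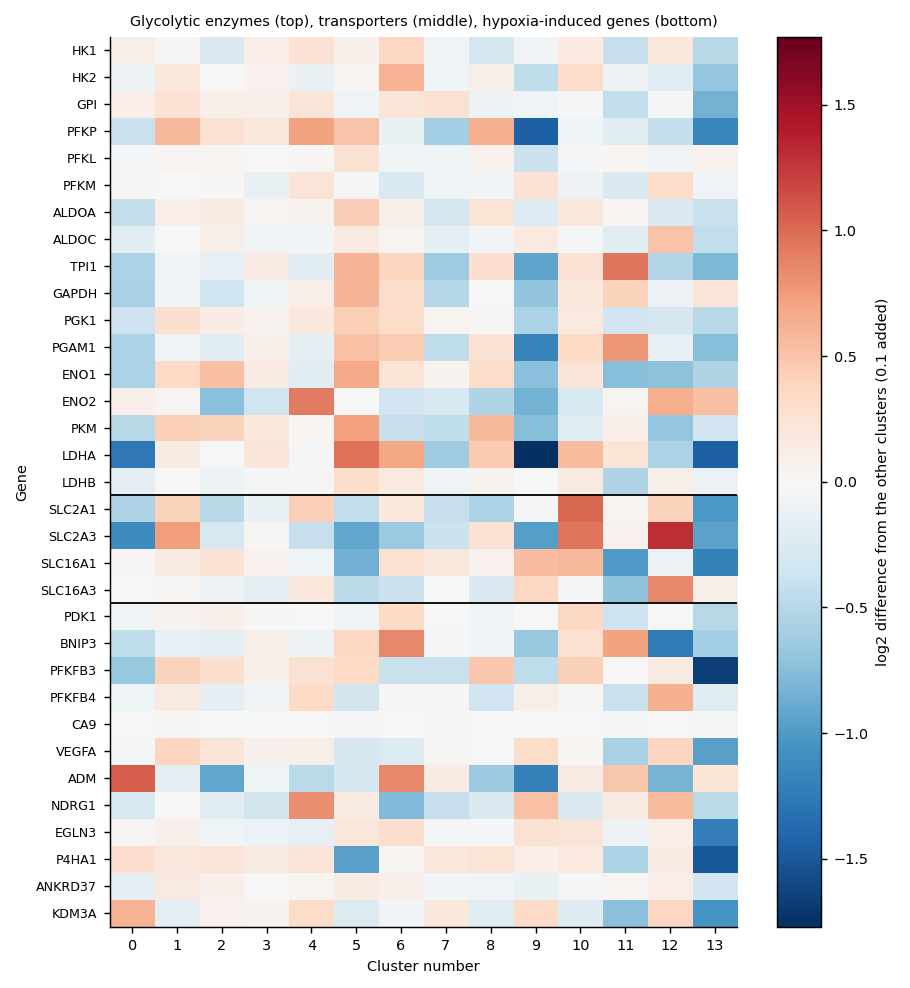
Log2 difference of each of the 33 members (rows) in each cluster (columns) from the mean of the other clusters, red for higher and blue for lower. LDHA is the bluest row in cluster 9 (-1.77) and SLC2A3 the reddest in cluster 12 (1.31), while CA9 is blank because its level was near 0 in all clusters.

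At the entry of glucose, both facilitative transporters were higher than the other clusters in clusters 1, 10, 11 and 12. Both were lower in clusters 0, 2, 5, 7, 9 and 13. The log2 differences were small for both in cluster 11 (0.05 and 0.08) and for SLC2A1 in cluster 9 (-0.02). SLC2A1, the widely expressed transporter GLUT1, had a lowest level of 0.924 (cluster 13), a median of 1.82 and a highest of 3.69 (cluster 10, log2 difference 1.02), followed by 2.52 in cluster 4. SLC2A3, the high-affinity transporter GLUT3, went from 3.73 in cluster 0 over a median of 6.32 to 17.8 in cluster 12 (log2 difference 1.31), followed by clusters 10 (14.3) and 1 (12.6). The share of SLC2A1 in the sum of the pair was lowest in clusters 8 (12.2%) and 12 (12.3%) and highest in cluster 9 (31.5%). UMIs were counted at the 3′ end and not divided by length, so such a share compares clusters and not the amounts of both transcripts. In the SOX17-high cluster 0, SLC2A3 was 1.11 lower on the log2 scale than in the other clusters. The high value in cluster 12 rests on 180 cells of which 99.4% came from 1 library, so cluster and library cannot be told apart there. Cluster 1 held 2782 cells, 37.3% of them from its largest library.

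The lactate and pyruvate transporters were lowest and highest in different clusters. SLC16A1, which encodes MCT1, went from 0.529 (cluster 13) over a median of 1.35 to 1.90 (cluster 10), with 1.86 in cluster 9 and 0.617 in cluster 11. SLC16A3, the lactate exporter MCT4 and a known HIF target, went from 0.0298 (cluster 11) over 0.105 to 0.254 (cluster 12). SLC16A1 held at least 90.1% of the pair's sum in the clusters of 200 cells or more, and 82.5% in cluster 12.

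Hexokinases trap glucose in the cell by phosphorylation. HK1, the constitutive form, varied little, from 0.448 (cluster 13) over 0.676 to 0.852 (cluster 6). HK2, the inducible form, had its highest level in the same cluster, 0.181, a median of 0.0848, and among clusters of at least 200 cells its lowest in cluster 9, 0.0421. In cluster 13 its level of 0.0212 rests on at most 2 UMIs. The HK2 share of the pair was 6.27% in cluster 9 and 17.5% in cluster 6. GPI, which isomerises glucose 6-phosphate, went from 0.302 (cluster 13) over 0.611 to 0.729 (cluster 7), and was 0.564 in cluster 9.

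Phosphofructokinase catalyses the committed step, and its subunit genes diverged. PFKP, the platelet-type subunit, went from 0.0649 (cluster 9) over 0.303 to 0.571 (cluster 4), followed by clusters 8 (0.542) and 1 (0.516). PFKM, the muscle-type subunit, went from 0.123 (cluster 6) over 0.160 to 0.228 (cluster 12), and was 0.215 in cluster 9. PFKL, the liver-type subunit, went from 0.136 (cluster 9) over 0.203 to 0.258 (cluster 5). PFKP made up 77.5% of the sum of PFKP and PFKM in cluster 8 and 23.2% in cluster 9, where PFKM was among its highest values. Of the aldolases, which split fructose 1,6-bisphosphate, ALDOA went from 0.0685 (cluster 0) over 0.129 to 0.191 (cluster 5) and ALDOC from 0.0902 (cluster 13) over 0.147 to 0.250 (cluster 12). The ALDOA level is uncertain, since 42.8% of its exon bases in GENCODE 44 overlap a second gene on the same strand, and UMIs there may have been left uncounted or assigned elsewhere.

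Most enzymes after the split of the sugar were lowest in cluster 9. GAPDH, which oxidises glyceraldehyde 3-phosphate, went from 28.7 (cluster 9) over 44.5 to 66.2 (cluster 5), with 59.1 in cluster 11. TPI1, triosephosphate isomerase, went from 7.93 (cluster 9) over 13.7 to 26.8 (cluster 11). PGAM1, phosphoglycerate mutase, had the same extreme clusters, 0.913 in cluster 9, a median of 1.95 and 3.48 in cluster 11. TPI1 and PGAM1 were thus each lowest and highest in clusters that drew most of their cells from 1 library.

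PGK1, the first ATP-forming enzyme of the pathway, went from 3.07 (cluster 9) over 4.63 to 5.88 (cluster 5). PKM, pyruvate kinase, went from 3.01 (cluster 9) over 4.76 to 7.94 (cluster 5), with 7.22 in cluster 8. ENO1, the main enolase, went from 7.03 (cluster 11) over 12.4 to 17.7 (cluster 5) and was 7.07 in cluster 9. ENO1 was thus low in cluster 11, where TPI1 and PGAM1 were highest. ENO2, the enolase known from neurons, was highest elsewhere, 0.949 in cluster 4 and 0.789 in cluster 12, with a median of 0.445 and a lowest level of 0.242 in cluster 9. Of the 17 enzymes, cluster 9 held the lowest level of 9 and cluster 5 the highest of 8.

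LDHA, the subunit that predominates in muscle and in glycolytic tumors and whose promoter is printed above with 3 capital stretches, had a log2 range of 2.56 with 0.1 added, the widest of the members on that scale. Without an added value its highest level was 6.11-fold its lowest. This fold was higher for ADM (25.1), PFKFB3 (14.2), EGLN3 (9.84), PFKP (8.80), HK2 (8.55), SLC16A3 (8.51) and VEGFA (7.33). The lowest levels of PFKFB3, EGLN3, HK2 and VEGFA were in cluster 13 and rest on at most 3 UMIs. LDHA was lowest in cluster 9 (2.29), followed by clusters 13 (2.89) and 0 (3.27), had a median of 8.03, and was highest in clusters 5 (14.02), 6 (11.8) and 10 (10.96). LDHB, the heart-type subunit, stayed between 13.6 (cluster 11) and 23.5 (cluster 5) with a median of 19.3, although 33.4% of its exon bases overlap a second gene on the same strand. The LDHA share of the pair was lowest in clusters 9 (10.6%), 13 (13.9%) and 0 (15.9%), had a median of 30.1%, and was highest in clusters 5 (37.4%) and 11 (39.8%). Cluster 7 had 21.5%. Such a share does not depend on how the columns are scaled. In clusters 0 and 7, the clusters with the highest SOX17 levels (21.0 and 12.4), LDHA was lower than the other clusters by log2 differences of -1.26 and -0.63.

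**Figure D3:**
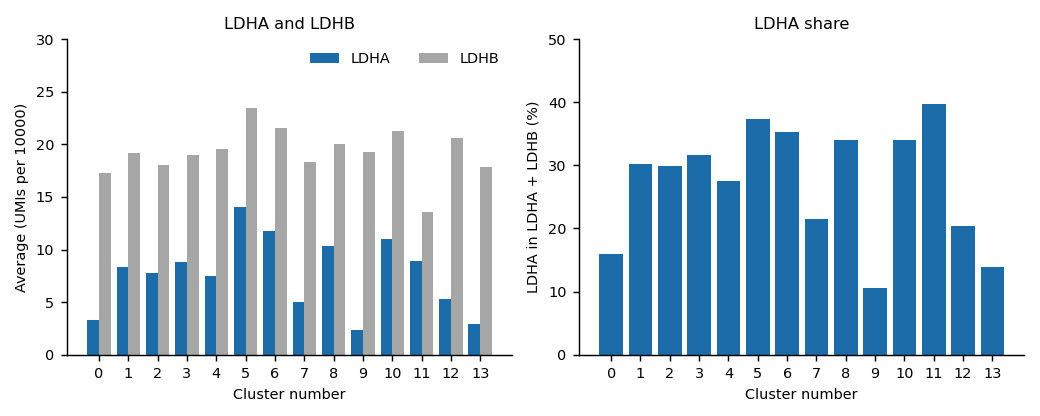
Left, average level of LDHA (blue) and LDHB (grey) in UMIs per 10000 in each cluster, and right, LDHA as a percentage of the sum of both. LDHA goes from 2.29 in cluster 9 to 14.02 in cluster 5 while LDHB stays between 13.6 and 23.5, so that the LDHA share goes from 10.6% to 39.8%.

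The hypoxia-induced genes did not follow the enzymes as 1 group. BNIP3, a mitophagy receptor with 5 stretches in its promoter, went from 0.799 (cluster 12) over 1.85 to 3.39 (cluster 6) and 3.11 (cluster 11), thus ordering the clusters much like TPI1 and PGAM1. PDK1, the kinase that blocks entry of pyruvate into the mitochondrial citrate cycle, went from 0.0565 (cluster 13) over 0.116 to 0.173 (cluster 10) and 0.171 (cluster 6). PFKFB3, which makes the activator of phosphofructokinase, went from 0.154 (cluster 0) over 0.324 to 0.429 (cluster 8) among the larger clusters, and its 0.0301 in cluster 13 rests on at most 3 UMIs. PFKFB4, its relative, was highest in cluster 12 (0.188), with a median of 0.0882 and a lowest level of 0.0501 in cluster 11.

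The secreted factors VEGFA and ADM were highest in different clusters. VEGFA, the angiogenic growth factor, was highest in clusters 1 (0.207), 12 (0.206) and 9 (0.194), had a median of 0.145 and was 0.0651 in cluster 11. In cluster 13 its 0.0282 rests on at most 3 UMIs. ADM, the vasodilator peptide adrenomedullin, had 0.397 in the SOX17-high cluster 0 and 0.334 in the POU5F1-high cluster 6, a median of 0.136, and 0.0158 in cluster 9. Clusters 0 and 6 thus stood above the rest for ADM, of which the third was cluster 11 with 0.246.

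Of the other hypoxia-induced genes, NDRG1, a stress-responsive gene, went from 0.0621 (cluster 6) over 0.134 to 0.354 (cluster 4), the cluster in which ENO2 was also highest. KDM3A, a histone demethylase, was highest in cluster 0 (0.460), with a median of 0.281 and 0.134 in cluster 11. P4HA1, a collagen prolyl hydroxylase, was between 0.761 and 0.913 in 11 clusters and was 0.481, 0.346 and 0.210 in clusters 11, 5 and 13. These 3 clusters had the highest ribosomal shares, 23.7%, 23.4% and 29.8%, and the part of that share was not tested. EGLN3, the prolyl hydroxylase induced by its own substrate factors, was among the least variable members outside cluster 13, from 0.153 (cluster 4) over 0.178 to 0.236 (cluster 6), and ANKRD37, an ankyrin repeat gene, went from 0.0389 (cluster 0) over 0.0568 to 0.0713 (cluster 1). In cluster 13 each rests on at most 2 UMIs. CA9, the cell-surface carbonic anhydrase used as a hypoxia marker in tumors, was listed at 0 in clusters 11 and 13 and reached at most 0.00254 (cluster 7), and its promoter holds a match.

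**Figure D4:**
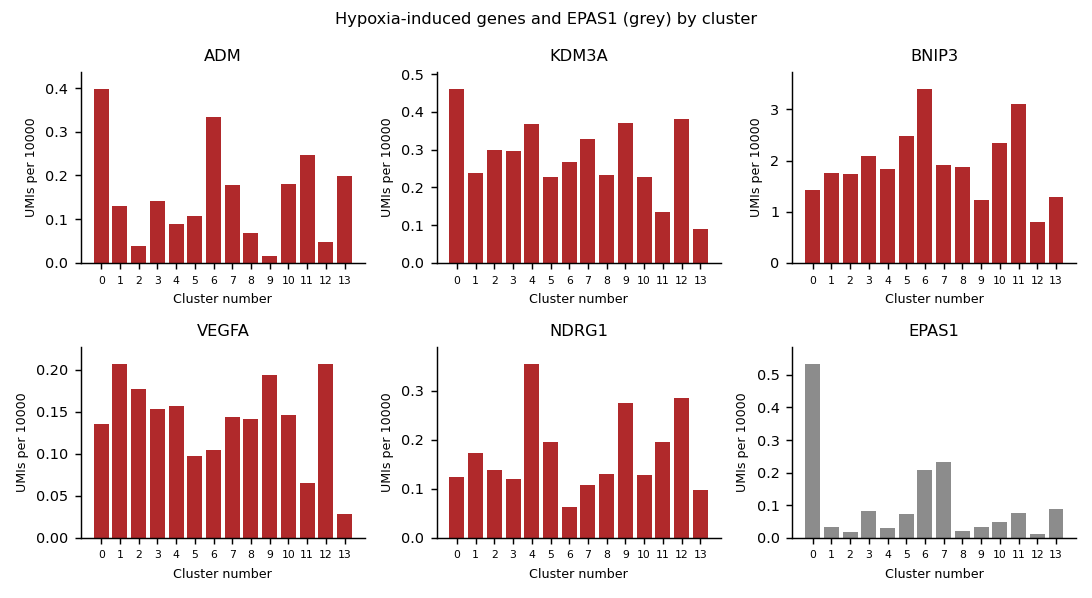
Average level (UMIs per 10000, each panel with its own axis from 0) of 5 hypoxia-induced genes (red) and of the HIF subunit gene EPAS1 (grey) in each cluster. ADM, KDM3A and EPAS1 are highest in cluster 0, BNIP3 in cluster 6 and NDRG1 in cluster 4, and VEGFA has its highest levels of 0.207 and 0.206 in clusters 1 and 12.

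Within single clusters, the members with the largest differences came from different lists. In cluster 9, LDHA (-1.77), PFKP (-1.45), ADM (-1.20) and PGAM1 (-1.18) were lower, while the hypoxia-induced list had a median of 0.10 against 0.09 for all genes. In the same cluster 4 of 6 EC markers and 8 of 8 G2/M cell cycle genes were at least 2-fold lower, with summed levels of 2.20 (1.36 to 13.01 over all clusters) and 1.68 (1.58 to 29.8). Integrated stress response genes had nearly equal highest sums in clusters 9 (9.11) and 13 (9.09). Clusters 12 (7.89) and 0 (7.85) followed, and cluster 11 was lowest (2.66). DDIT3 alone gave 3.36 of the sum in cluster 9 and 4.96 of that in cluster 13. The median log2 difference of the list was 0.30 in clusters 9 and 0 but -0.09 in cluster 13. In cluster 9, 1 of 9 was at least 2-fold higher. Over all clusters 2.38% of the pairs of these genes were, against 1.27% over all genes. The part of these genes in the enzyme levels was not tested. In cluster 5, LDHA (0.96) was higher while P4HA1 (-0.96), SLC2A3 (-0.92) and SLC16A1 (-0.85) were lower, so an enzyme and the transporters went opposite ways. In cluster 6, BNIP3 (0.85), ADM (0.85) and LDHA (0.68) were higher and NDRG1 (-0.78) lower. In cluster 10, SLC2A1, SLC2A3 (0.95), SLC16A1 (0.58) and LDHA (0.56) were all higher. SLC16A3 was at its median there (0.104). The cluster held 802 cells, 63.7% of them from 1 library.

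In cluster 0, ADM (1.07) was higher, and LDHA (-1.26), SLC2A3 (-1.11) and PFKFB3 (-0.67) were lower. In cluster 1, SLC2A3 (0.74), PFKP (0.57), PKM (0.43) and SLC2A1 (0.40) were higher, and in cluster 4 ENO2 (0.92), NDRG1 (0.83) and PFKP (0.71) were higher and ADM (-0.47) lower. Cluster 11 had higher TPI1 (0.95) and PGAM1 (0.78) and lower SLC16A1 (-1.001) and ENO1 (-0.75). Enzymes thus stood on both sides in cluster 11, which had a ribosomal share of 23.7%. In cluster 12, SLC2A3 and SLC16A3 (0.85) were higher, and BNIP3 (-1.25) and ADM (-0.82) lower. In cluster 13, the 4 largest were lower, PFKFB3, P4HA1 (-1.50), LDHA (-1.44) and EGLN3, but all genes there had a median of -0.51.

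The medians of the enzymes and of the hypoxia-induced genes had a Pearson r of 0.37 and a Spearman rho of 0.12 over the 14 clusters. Over the 12 clusters of at least 200 cells, r was -0.03 and rho 0.08, and without cluster 13 alone r was -0.09, so the weak relation rests on that cluster. With the medians of the further hypoxia-induced genes described below, the enzyme medians had an r of -0.04 and a rho of -0.35 over 14 clusters. Over the 12 clusters these were -0.53 and -0.55. The medians of the transporters and the hypoxia-induced genes had an r of 0.82 over 14 and 0.80 over 12 clusters. The enzyme median had an r of 0.68 with the median of S phase genes, and one of 0.66 over the 12. Its r was 0.57 and 0.45 with the EC markers and 0.49 and 0.35 with the G2/M genes, over 14 and 12 clusters. With the median of all genes it was 0.05 and -0.44. The hypoxia-induced median had an r of -0.85 and a rho of -0.46 with the ribosomal share over 14 clusters, and -0.66 and -0.39 over 12. With the median of all genes, its r was 0.84 and its rho 0.55 over 14 clusters, and 0.68 and 0.46 over 12. These are descriptions over points that share libraries and a fixed total.

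Gene by gene, the pairs of 2 enzymes had a median r of 0.38 over the 12 clusters, and 104 of 136 were positive. The pairs of 2 hypoxia-induced genes had a median of 0.03, with 30 of 55 positive, and pairs of an enzyme with a hypoxia-induced gene 0.06, with 104 of 187 positive. LDHA varied with PGAM1 (0.92), GAPDH (0.88), ALDOA (0.87) and TPI1 (0.87). BNIP3 varied with the same enzymes, PGAM1 (0.89), TPI1 (0.85) and GAPDH (0.84). VEGFA varied with SLC16A3 (0.87), SLC16A1 (0.75) and P4HA1 (0.71) and opposite to BNIP3 (-0.78), TPI1 (-0.72), PGAM1 (-0.70) and GAPDH (-0.65). These 2 hypoxia-induced genes, BNIP3 and VEGFA, thus lay on opposite sides for TPI1, PGAM1 and GAPDH. With other enzymes VEGFA had a positive r, as with PFKM (0.66) and GPI (0.58).

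**Figure D5:**
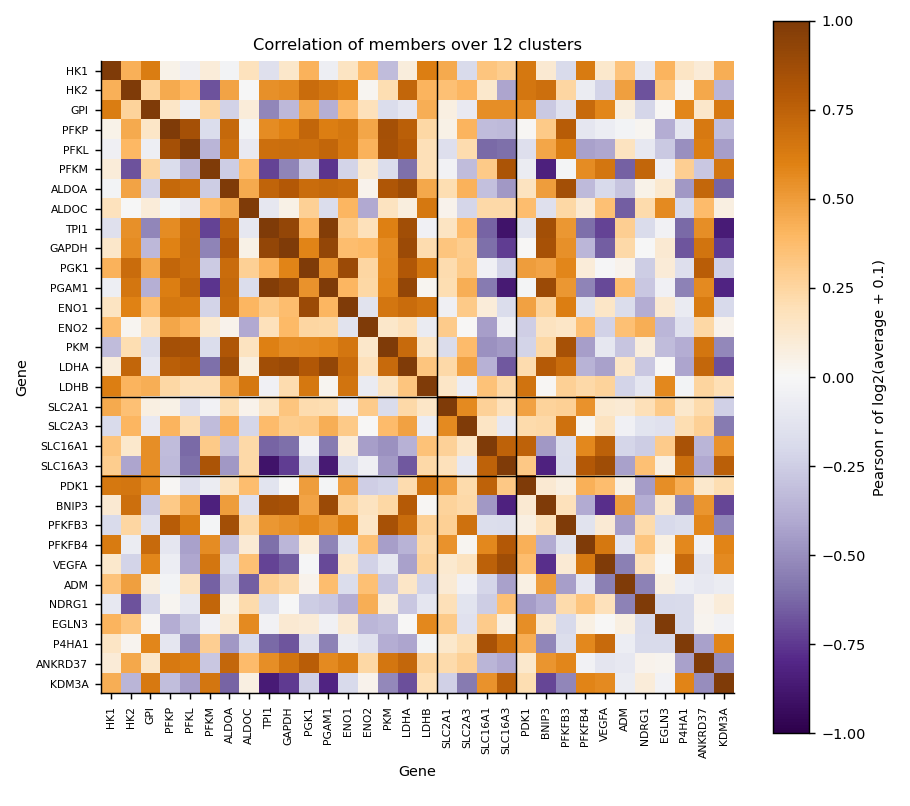
Pearson r of log2(level + 0.1) between members over the 12 clusters of at least 200 cells, orange for positive and purple for negative, with lines between enzymes, transporters and hypoxia-induced genes. LDHA, PGAM1, GAPDH and TPI1 form an orange block with BNIP3 in the hypoxia-induced rows, while VEGFA and SLC16A3 are purple against TPI1 and PGAM1.

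Other genes of the same pathways were read from lists that do not contain the members, apart from EGLN1, which 2 of these lists hold. Of 29 other glycolysis genes in the table, 12 had a mean level of at least 0.05, and 0 of their 168 pairs with a cluster were past 2-fold. Among 24 further hypoxia-induced genes, 4 pairs were higher and 16 lower, 9 of the latter in cluster 13. These are 1.19% and 4.76% of their pairs, near the 1.27% and 3.4% over all genes. AK4, a mitochondrial adenylate kinase, was higher in cluster 6 (0.975, 1.51) and lower in cluster 9 (0.0693, -1.40), as LDHA was, and had an r of 0.84 with LDHA over the 14 clusters. BHLHE40, a circadian repressor, was higher in cluster 12 (1.72, 1.08) and lower in cluster 6 (0.240, -1.52). RORA, a nuclear receptor gene, was lower in cluster 5 (0.220, -1.19) and DDIT4, an inhibitor of mTOR signaling, in cluster 11 (0.155, -1.22). In cluster 13, GBE1 (-1.77) and PLOD2 (-1.53), enzymes of glycogen and collagen, were lower, and AK4 was at 0.0283.

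Of 16 genes of oxygen sensing and the HIF subunits, 2 pairs were higher and 7 lower, 6 of the latter in cluster 13, which is 0.89% and 3.13% of their pairs against the same shares over all genes. EPAS1, which encodes HIF-2 alpha, was highest in cluster 0 (0.533, log2 difference 1.87), followed by clusters 7 (0.231) and 6 (0.207), against at most 0.0877 in the others. HIF1A went from 0.829 (cluster 11) to 1.80 (cluster 4) outside cluster 13, with no cluster there past 2-fold. ELOB, a subunit of the VHL ligase complex, was higher in cluster 11 (12.6, 1.05) and lower in cluster 9 (2.98, -1.16). In cluster 13, CUL2 (-2.04), HIF1A (-1.57) and the coactivator gene CREBBP (-1.49) were lower. ADM and EPAS1 shared cluster 0 as their highest and had an r of 0.81 over the 14 clusters. Both are known from endothelium, and the summed level of 6 endothelial and blood markers was 1.02 in cluster 0 against 0.0814 to 0.381 elsewhere, with CDH5 and KDR at least 2-fold higher and PECAM1, TEK, HBG1 and PTPRC below a mean level of 0.05. The part of such expression in the ADM level was not tested. The pairs of AK4 with LDHA and of EPAS1 with ADM were chosen after their values were seen, and transcript levels do not measure HIF protein.

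Of the members, 5 lie on the short arm of chromosome 12, whose gain is a known hallmark of germ cell tumors, namely TPI1, GAPDH, ENO2, LDHB and SLC2A3. Together they took 61.5% (cluster 2) to 77.2% (cluster 13) of the summed level of all 33 members. Their highest levels were in cluster 11 for TPI1, cluster 5 for GAPDH and LDHB, cluster 4 for ENO2 and cluster 12 for SLC2A3. Copy number was not measured here, and its part in these levels was not tested.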

How the data were processed

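The submitters' processing notes name GRCh38, Cell Ranger 7.0 and Seurat 4.1.1 for the droplet libraries of the 3 lines. Per the study's methods, libraries were aggregated to equal depth, cells with under 200 genes or over 10% mitochondrial reads and doublets were removed, and cells were clustered on a graph after SCTransform. Which annotation release was counted is not given in the sources used. Equalising depth discards reads of deeper libraries, and the filters fix which cells enter a cluster.

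The authors deposited averages per cluster, and counts of the cells that each library code gave to a cluster. Each average was the mean over the cells of a cluster of UMIs per 10000 of that cell, with columns that sum to 10000, which was tested on the values. Another deposited table held the authors' own fold changes, p-values and detection shares per cluster and was not used. The 3 library codes matched no label, and library totals of UMIs were not used. From the lowest value above 0 of each column, taken as 1 UMI in 1 cell, the deepest cell of a cluster held 28123 to 182878 UMIs, and the UMIs behind a value were bounded in the same way. Samples were grouped by title. For 1 of 3 the cell line was named differently in another label, and the title was used. A quality table of the study names NT2/D1 beside GCT27 for the single cell data, and the labels were followed.

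The members and lists were chosen with earlier results of these data known. Log2 differences, list medians, counts past 2-fold, shares within pairs of related genes and correlations over clusters were computed with 0.1 added and a mean of at least 0.05. No test was run, since a cluster has 1 pooled value and was formed from the same genes. The calculation was tested on simulated averages. All members were named, and in the clusters with the 3 highest and 2 lowest medians of a list, or the highest SOX17 or POU5F1, the 4 members with the largest difference, with up to 3 genes past 2-fold of each other pathway list. In clusters 8, 2, 3 and 7, members are named by single values outside this rule, chosen after they were seen. For 1 gene of the further hypoxia-induced list, single values are not reported here. The pairs AK4 with LDHA and ADM with EPAS1 were chosen after their values were seen. Promoters came from RefSeq, taking the one nearest the GENCODE 44 canonical start where there were several. Alternatives were other pseudocounts, minimum means, column scalings, weights and cluster sets. Python 3.11.15, pandas 2.3.3, numpy 2.4.6, scipy 1.17.1 and matplotlib 3.10.9 were used.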

Additional observations from a re-analysis of the deposited data

How the results depend on the processing

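The enzyme medians kept their sign under every setting tried in clusters 0, 5, 6, 7, 8, 9, 10, 12 and 13, with ranges of 0.18 to 0.67 in cluster 5 and -0.81 to -0.28 in cluster 9. The hypoxia-induced medians kept their sign in clusters 0, 1, 4, 10 and 13 and changed it under at least 1 setting in the other 9, with ranges of -0.30 to 0.13 in cluster 5, -0.03 to 0.45 in cluster 6 and -0.28 to 0.13 in cluster 9. With 0.01 added, their median in cluster 13 was -0.99. The hypoxia-induced median of cluster 12 was -0.55 with a minimum mean of 0.5, which leaves 2 of the hypoxia-induced genes. The cause of the other changes was not tested. The 3 pairs at least 2-fold higher became 9 and 1 with 0.01 and 1 added, 8 with the median of ratios and 5 without ribosomal protein and mitochondrial genes. The 16 lower pairs became 28 and 3 with 0.01 and 1 added, 10 with a minimum mean of 0.5, 9 without clusters under 200 cells and 10 without cluster 13. The 5 members with a 4-fold range became 13 and 1 with 0.01 and 1 added, 2 with a minimum mean of 0.5 and 3 without clusters under 200 cells. The r of enzyme and hypoxia-induced medians became 0.163 without ribosomal protein and mitochondrial genes, -0.0287 without clusters under 200 cells and -0.0926 without cluster 13. It rose to 0.53 with the median of ratios and to 0.49 with a minimum mean of 0.5. The setting without cluster 13 was chosen after seeing the data.

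No paired analysis was possible because the averages carry no sample and each cell line has 1 library. Low members rest on few UMIs in cluster 13. The columns sum to a fixed total, so a higher ribosomal share leaves less of that total to the remaining genes together. Its part in the low all-gene medians was not tested. Clusters 13, 11 and 5 kept such medians of -0.38, -0.25 and -0.20 once the columns were rescaled without ribosomal protein and mitochondrial genes. Before this rescaling they stood at -0.51, -0.29 and -0.24. Rescaling by the median of ratios left a median of -0.26 over all genes in cluster 13.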
